A study of Homo sapiens with 24 samples.

Results

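The comparison described here is that of HCT116 cells with TNRC6A and TNRC6B knocked out with wild-type HCT116 cells, both transfected with the control duplex siGL2. Its members are 6 of the 24 libraries of the series, chosen by label: 3 of TNRC6AB-/- siGL2 and 3 of wild-type siGL2. HCT116 is a colorectal carcinoma line of epithelial origin. siGL2 is a duplex RNA directed at a luciferase, a gene the cells do not have, and the study used it as the noncomplementary control for duplexes against TNRC6C. Cells of the other 6 groups (3 libraries each) either were left untransfected (wild type, the single knockouts TNRC6A-/- and TNRC6B-/-, and the double knockout) or, in wild type and TNRC6AB-/-, received siTNRC6C, an siRNA pool against TNRC6C. The TNRC6AB-/- line carries a frameshift in TNRC6A and a large deletion in TNRC6B. It is 1 line, so that the genotype and the history of that line cannot be told apart, and the methods state that it was seeded at a higher number of cells per well than wild type, which cannot be told apart from genotype either. Nothing in the labels says that the 3 libraries of a group came from separate cultures on separate days, so the tests measure the spread between these libraries, which may be technical.

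TNRC6 proteins (TNRC6A, TNRC6B and TNRC6C, also called GW182 proteins) bind Argonaute proteins that carry a microRNA or siRNA, and recruit the CCR4-NOT and PAN deadenylases to the targeted message. In the cytoplasm the message is then translated less and decays. Loss of these scaffolds is therefore known to release microRNA targets, and Argonaute and TNRC6 proteins are also found in the nucleus. Argonaute selects its targets mainly through the seed of the small RNA it holds. The strands of siGL2 are shown because all 6 libraries were exposed to them, with the seed (bases 2 to 8) of the antisense strand in capitals and without the pair of deoxythymidines that ends each strand:
siGL2 antisense: uCGAAGUAuuccgcguacg
siGL2 sense: cguacgcggaauacuucga

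Sequencing depth was 31197066 to 40728709 reads in the TNRC6AB-/- siGL2 libraries and 34158885 to 42689320 in wild-type siGL2. Replicate 3 was the shallowest library of both groups, and 4.50% and 4.33% of its reads were assigned to retained-intron transcripts, against 3.52% and 3.75% in the other two TNRC6AB-/- libraries and 3.28% and 3.33% in the other two of wild type. Levels are given in CPM, reads of a gene as a share of the assigned reads of the library, scaled by TMM. The summed marker levels here and below are the exception and are not scaled by TMM. Of the epithelial markers EPCAM, KRT8, KRT18 and KRT19 were high in all 6 libraries, whereas VIL1 and LGALS4, which mark differentiated enterocytes, were below 1 CPM. The summed level of the 10 epithelial markers was 2079 to 2206 CPM in TNRC6AB-/- siGL2 and 1852 to 2039 CPM in wild-type siGL2. Blood markers summed to 2.18 to 2.72 and 0.712 to 1.12 CPM, 5 of the 6 being below 1 CPM in every library, and LYZ, lysozyme, was the member that rose (log2 fold change 2.89, SE 0.31, adjusted p = 2.81e-07). Endothelial markers summed to 2.29 to 3.59 and 2.01 to 2.56 CPM. Fibroblast and muscle markers summed to 45.8 to 52.3 and 24.4 to 33.8 CPM, with LUM at 0 in all 6 libraries, and 2 of 7 tested (COL1A1 and COL3A1) rose.

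The mutated genes were measured first, as a check of the labels. TNRC6A (ENSG00000090905.18, GRCh38 chr16:24610209-24827632, plus strand) stood at 135, 133 and 119 CPM in wild-type siGL2 and at 65.5, 65.8 and 70.5 CPM in TNRC6AB-/- siGL2 (log2 fold change -0.94, SE 0.10, adjusted p = 3.00e-07). TNRC6B (ENSG00000100354.20, chr22:40044817-40335808, plus strand) stood at 224, 221 and 210.4 CPM and 86.9, 83.2 and 77.4 CPM (log2 fold change -1.41, SE 0.10, adjusted p = 3.32e-10). Both messages were thus lower in all TNRC6AB-/- libraries and neither was absent. TNRC6C (ENSG00000078687.17, chr17:77959240-78108835, plus strand), the paralog left intact, rose from 58, 53.7 and 49.5 CPM to 127, 119 and 113 CPM (log2 fold change 1.16, SE 0.088, adjusted p = 2.11e-09). In bulk RNA a change in RNA per cell and a change in the share of cells that express a gene cannot be told apart. FAM83F, the gene upstream of TNRC6B, had 36.5, 38.3 and 36.4 CPM in the wild-type and 34.2, 33.8 and 32.7 CPM in the TNRC6AB-/- libraries (log2 fold change -0.14, SE 0.14, adjusted p = 0.544).

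Counts over a whole gene do not show a deleted exon, and the estimates per transcript did. In wild-type siGL2 the leading TNRC6B transcript was TNRC6B-202 (chr22:40177942-40335808, 21 exons), with 6261, 5439 and 5410 reads, and in TNRC6AB-/- siGL2 it held 15, 0 and 15 reads. TNRC6B-201 (chr22:40044817-40335807, 24 exons) moved the other way, from 156, 252 and 198 reads to 2881, 2946 and 2220. TNRC6B-201 lacks exon 5 of TNRC6B-202 (chr22:40264688-40267036, 2349 bases). The 3 of 9 annotated TNRC6B transcripts that hold bases of this exon took 95.1%, 93.1% and 93.5% of the TNRC6B reads in wild-type siGL2 and 12.6%, 9.78% and 12.5% in TNRC6AB-/- siGL2. Among untransfected cells the share was 93.2% in wild type and 94.5% in TNRC6A-/- cells (means, n = 3). It was 12.8% in TNRC6B-/- and 12.1% in TNRC6AB-/- cells (means, n = 3). The 6 libraries thus carried the exon pattern of the TNRC6B genotype in their labels. The share does not tell TNRC6AB-/- from TNRC6B-/- cells and does not bear on TNRC6A or siGL2. Salmon divides reads among overlapping transcripts, and a message with a deletion that no annotated transcript has is assigned to the nearest one, so these shares do not give the edges of the deletion.

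In length-scaled abundance (TPM) the paralogs traded places. TNRC6C made up 14.9% of the summed TNRC6 TPM in wild-type siGL2 and 39.5% in TNRC6AB-/- siGL2, TNRC6B 36.2% and 14.9%, and TNRC6A 48.9% and 45.6% (means, n = 3). The sum was 45.5 ± 8.68 TPM in wild type and 46.7 ± 4.77 TPM in TNRC6AB-/- cells, a difference smaller than the spread between replicates. TNRC6A, the gene with the frameshift, was lower in reads but not in TPM, at 22.3 ± 4.50 against 21.4 ± 4.26 TPM with overlapping groups, and with reads rebuilt from TPM its change no longer passed the test (log2 fold change -0.44, adjusted p = 0.051). Its transcripts under 1000 bases held 43.8% to 56.3% of its TPM in wild type and 62.3% to 68.3% in TNRC6AB-/- cells, although only 2.71% to 5.26% and 6.47% to 8.39% of its reads. Transcripts of that size also held 35.6% to 45.7% of TNRC6B TPM and 26.1% to 42.8% of TNRC6C TPM over the 6 libraries. The summed TPM therefore does not measure full-length message. The main full-length transcript, TNRC6A-201, fell from 4211, 3999 and 3359 reads to 1970, 2002 and 1770. In TPM it fell from 8.01, 7.75 and 8.50 to 4.73, 4.95 and 5.56.

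Of the 19 core genes of RNA interference 5 rose and 3 fell (edgeR, adjusted p below 0.05), where 9.17% of all 24153 tested genes rose and 12.5% fell. These counts include the knocked-out TNRC6A and TNRC6B among the falls and TNRC6C, given above, among the rises. DICER1, which cuts microRNA precursors and is itself a let-7 target, rose from 109, 109 and 99.3 to 212, 200.4 and 180.0 CPM (log2 fold change 0.90, SE 0.091, adjusted p = 1.35e-07). AGO2, the Argonaute with slicer activity, rose from 363, 352 and 317 to 619, 580.2 and 539 CPM (log2 fold change 0.75, SE 0.12, adjusted p = 7.31e-05). Both were higher in every TNRC6AB-/- library than in any wild-type library. AGO3 also rose (log2 fold change 0.55, SE 0.10, adjusted p = 0.000215), as did DGCR8, the partner of DROSHA in the nuclear microprocessor (log2 fold change 0.55, SE 0.11, adjusted p = 0.00106). SND1, a nuclease found in silencing complexes, fell (log2 fold change -0.46, SE 0.11, adjusted p = 0.00306), a call lost with reads rebuilt from TPM (adjusted p = 0.055). AGO1 (-0.02, adjusted p = 0.915) and DROSHA (0.00, adjusted p = 0.975) did not pass the test and their groups overlapped.

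**Figure D1:**
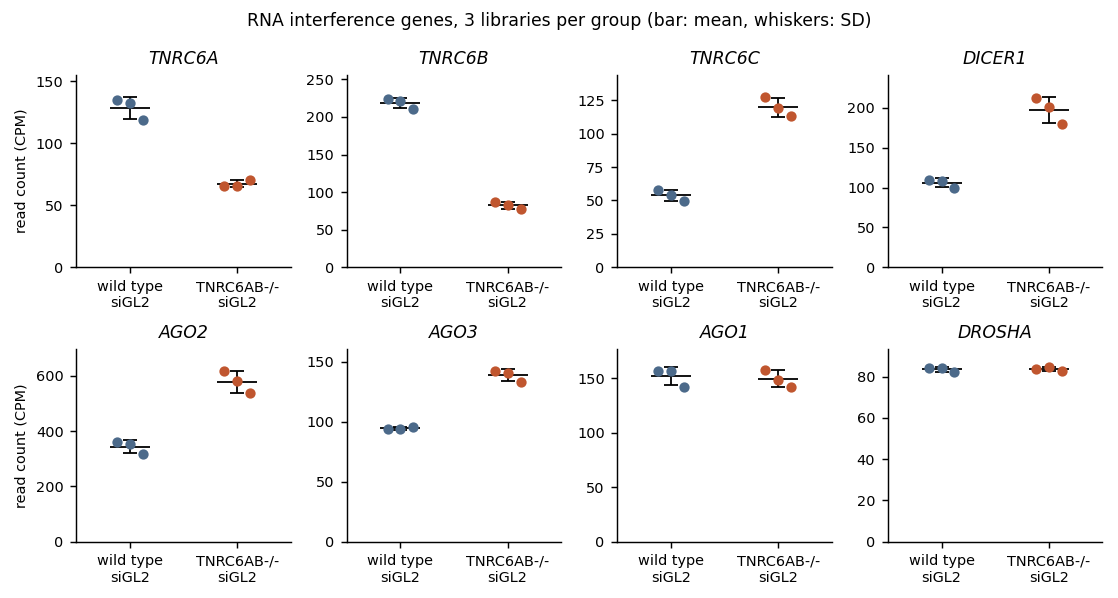
Read count in CPM of 8 RNA interference genes (y axis, from 0) in the 3 wild-type siGL2 and 3 TNRC6AB-/- siGL2 libraries (points), with the mean (long bar) and SD (whiskers). TNRC6A and TNRC6B are lower and TNRC6C, DICER1, AGO2 and AGO3 higher in every TNRC6AB-/- library, while AGO1 and DROSHA overlap.

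Deadenylases and decapping factors carry out the decay of messages that TNRC6 proteins mark. Of 20 tested genes of the CCR4-NOT and PAN deadenylases, scaffold and binding proteins included, 1 rose and 6 fell. CNOT3, a scaffold of the CCR4-NOT complex, fell from 56.1, 53.1 and 49.4 to 27.5, 26.7 and 29.5 CPM (log2 fold change -0.92, SE 0.083, adjusted p = 2.39e-08), and the catalytic subunit CNOT6L fell from 75.4 ± 4.40 to 39.8 ± 3.04 CPM (log2 fold change -0.92, SE 0.11, adjusted p = 8.20e-07). PABPC1, the poly(A)-binding protein to which TNRC6 proteins bind, fell as well (log2 fold change -0.54, SE 0.13, adjusted p = 0.00307). BTG2, an antiproliferative protein that binds the deadenylases and a target of p53, was the member that rose (log2 fold change 1.07, SE 0.13, adjusted p = 1.57e-06). Of 18 decapping and P-body genes 3 rose and none fell, led by the decapping enzyme DCP2, which went from 172, 171 and 154 to 333, 306 and 281 CPM (log2 fold change 0.89, SE 0.10, adjusted p = 6.75e-07).

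Across the transcriptome 3177 of 24153 tested genes (13.2%) changed, which asks for an adjusted p below 0.05 together with a difference of over 0.6 on the log2 scale. Of these 1301 were higher and 1876 lower in TNRC6AB-/- siGL2. The lean toward lower genes depended on the libraries that set the spread and the scale: a fit of the 12 transfected libraries called 1996 higher and 1819 lower (52.3% higher, against 41.0%). Several protein-coding genes were close to absent in one of the groups. ANXA10, CPVL, NRIP1 and TIMP3 were at 5 CPM or more in wild type and below 0.5 CPM in TNRC6AB-/- cells, and the reverse held for 2 genes (COL3A1 and KRTAP3-1). KRTAP3-1 was singled out after its values were seen.

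Among the falls, ANXA10, a gastrointestinal annexin, had 2692 reads over the 3 wild-type libraries and 4 over the 3 TNRC6AB-/- libraries, a ratio of 704-fold after scaling for depth (95% interval for counting error alone 275 to 2587). NRIP1, a corepressor of nuclear receptors, had 7944 and 17 reads (489-fold, 305 to 840-fold by the same interval). CPVL, a serine carboxypeptidase, had 1328 and 6 reads (232-fold, 106 to 632). These genes were thus expressed at a moderate level in wild type and nearly silent in the TNRC6AB-/- line. DPYSL3, a cytoskeletal phosphoprotein, fell from 46.2, 48.1 and 38.9 to 2.64, 2.86 and 2.51 CPM (log2 fold change -4.05, SE 0.29, adjusted p = 5.79e-10). HAS3, which makes hyaluronan, fell from 60.7, 60.5 and 48.6 to 5.31, 5.20 and 5.11 CPM (log2 fold change -3.44, SE 0.24, adjusted p = 5.69e-10). The calcium-binding protein S100A14 fell from 53, 48.5 and 39.4 to 5.29, 4.97 and 3.97 CPM (log2 fold change -3.30, SE 0.50, adjusted p = 3.49e-05). HNF4A, a transcription factor of the intestine and liver, fell from 14.8, 13.2 and 12.6 to 1.48, 1.89 and 2.0 CPM (log2 fold change -2.92, SE 0.19, adjusted p = 1.18e-10). The others of the 12 largest falls among protein-coding genes with a mean of at least 5 CPM over the 6 libraries were ISPD (-3.94), needed for sugar modification of dystroglycan, the cytochrome P450 CYP4F11 (-3.85), the islet autoantigen ICA1 (-2.87), the homeobox gene MKX (-2.72) and DDIT4 (-2.84), an inhibitor of mTORC1.

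Among the rises, ANKRD1, a nuclear ankyrin-repeat protein and a target of YAP, went from 0.715, 0.758 and 0.198 to 18.6, 18.3 and 15 CPM (log2 fold change 4.94, SE 0.39, adjusted p = 4.00e-09). CPA4, a secreted metallocarboxypeptidase, went from 13.1, 11.8 and 9.92 to 184, 174 and 169 CPM (log2 fold change 3.92, SE 0.19, adjusted p = 2.76e-12). SAMD4A, a human homolog of the RNA-binding repressor Smaug, went from 22.6, 22.9 and 23.3 to 188, 181 and 172 CPM (log2 fold change 2.98, SE 0.16, adjusted p = 8.86e-12). The groups were far apart for each of them. EPHA4, an ephrin receptor, rose from 4.59, 4.66 and 4.17 to 48.5, 47.1 and 47.3 CPM (log2 fold change 3.41, SE 0.19, adjusted p = 1.78e-11). The neuronal microtubule kinase DCLK1 rose from 1.46, 2.05 and 1.79 to 31.5, 29.2 and 27.5 CPM (log2 fold change 4.06, SE 0.41, adjusted p = 1.61e-07). SLC2A3, the glucose transporter GLUT3, rose from 43, 44.4 and 38 to 330.0, 302 and 283 CPM (log2 fold change 2.87, SE 0.33, adjusted p = 1.10e-06). The ligand TGFB2 (3.35), the glycosyltransferase MGAT4C (4.09), the matrix proteins MAMDC2 (3.40) and ECM1 (2.96), the transcription factor GLIS3 (3.35) and the keratin-associated gene KRTAP2-3 (2.99) made up the 12 largest rises at the same limit of 5 CPM. KRTAP2-3 has near-identical copies, so its reads are uncertain.

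The 4 non-coding genes with the smallest adjusted p were CR381653.2 (4.29), AC025419.1 (-2.68), MIR100HG (-1.24) and HSPD1P11 (2.48). MIR100HG, the host transcript of miR-100, let-7a-2 and miR-125b-1, fell from 97.8, 105 and 112 to 43.9, 41.3 and 47.7 CPM (log2 fold change -1.24, SE 0.11, adjusted p = 2.77e-08). HSPD1P11 is a pseudogene of the chaperonin gene HSPD1 and may share its reads.

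Differences were not spread evenly along the genome. Each gene with a mean of at least 5 CPM was placed in chromosome order, and 3 stretches stood apart, each found in these values and described with no test. At the start of chromosome 5 (chr5:196871-16936276, from CCDC127 to MYO10) 38 of 39 genes fell and none rose, with a median log2 fold change of -0.97, a linear ratio of 0.509. At the start of chromosome 7 (chr7:192969-33606068, from FAM20C to BBS9) 115 of 124 genes fell and 2 rose, with a median of -1.05, a linear ratio of 0.482. At the end of chromosome 9 (chr9:122202577-138124624, from LHX6 to CACNA1B) 131 of 196 genes rose and 5 fell, with a median of 0.53, a linear ratio of 1.44. Neighbouring genes of unrelated function thus shifted together by a like amount.

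The shift was seen in each library. Relative to the wild-type mean the 3 TNRC6AB-/- siGL2 libraries had medians of -0.86, -0.92 and -0.99 in the chromosome 5 stretch, -0.96, -1.03 and -1.05 in the chromosome 7 stretch, and 0.62, 0.54 and 0.47 in the chromosome 9 stretch, while the wild-type libraries lay between -0.17 and 0.08. The remainder of chromosomes 5, 7 and 9 had medians of -0.04, -0.01 and -0.02. In TNRC6AB-/- against wild type without transfection the medians were -1.0, -0.89 and 0.71, and with siTNRC6C -1.25, -1.23 and 0.36. Over all genes of at least 5 CPM the medians were -0.05 under siGL2, 0.08 without transfection and -0.21 with siTNRC6C. The stretch medians are not corrected for this baseline. The 3 comparisons share no library but share the TNRC6AB-/- line. In TNRC6A-/- cells the medians were 0.07, 0.06 and 0.13 and in TNRC6B-/- cells 0.02, 0.10 and 0.08, close to the medians of all 11658 genes of that level (0.06 and 0.09). Copy number of DNA was not measured in this series. Outside the stretches the medians of runs of 40 neighbouring genes ran from -0.39, at chr8:125430321-143618048, to 0.17, at chr9:96385941-104928237. The lowest of these runs holds MYC and AGO2, of which the first fell and the second rose.

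**Figure D2:**
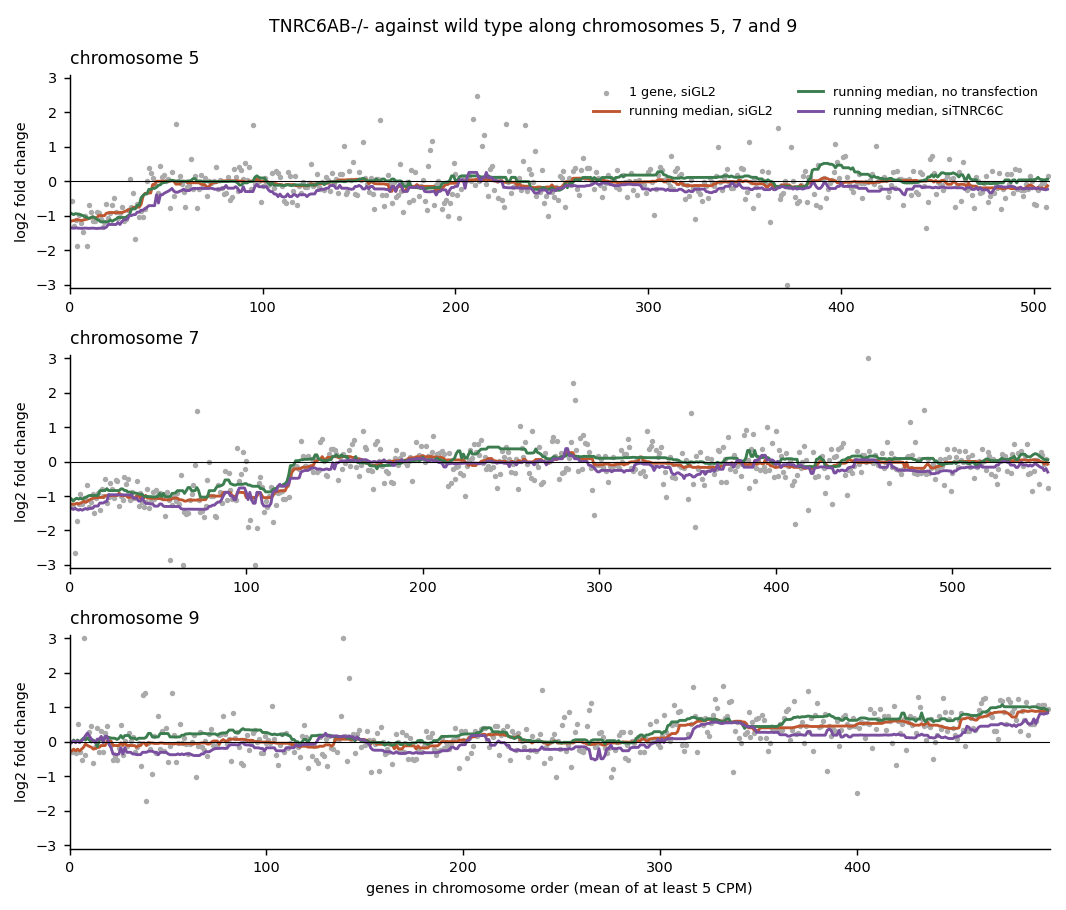
Log2 fold change of TNRC6AB-/- against wild type (y axis) for genes in order along chromosomes 5, 7 and 9 (x axis, rank of the gene). Points are genes under siGL2, drawn at the limit of 3 where beyond it, and lines are running medians of 25 genes under siGL2, without transfection and with siTNRC6C. All 3 lines step down at the start of chromosomes 5 and 7 and up at the end of chromosome 9.

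The stretches held 299 of the 3177 changed genes (9.41%), 191 lower and 108 higher, while they held 630 of the 24153 tested genes (2.61%). CPVL, ISPD and ICA1 among the largest falls lie in the chromosome 7 stretch, as do the let-7 target IGF2BP3, the glycyl-tRNA synthetase GARS and FKBP14, a gene the study names. NKD2 lies in the chromosome 5 stretch and NR6A1 in the chromosome 9 stretch. ITGB8 rose although it lies in the chromosome 7 stretch. Counts of lists below are given for all members, and without these stretches where that changes them.

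Of the genes that the study names in its text, DEPDC1, EPB41L2, KIF21A, PHLDB1, RUBCN, TBC1D5 and PPIP5K2 did not pass the test, with log2 fold changes from -0.42 (DEPDC1, adjusted p = 0.103) to 0.23 (RUBCN, adjusted p = 0.0907). The study examined these genes, APIP and FKBP14 for exon skipping, which counts over a whole gene do not measure. In the fit of the 6 compared libraries, in which the spread is smaller, DEPDC1, KIF21A, PHLDB1, RUBCN and PPIP5K2 passed, and RUBCN had an adjusted p of 0.00211 there (log2 fold change 0.30). APIP, an enzyme of methionine salvage, was lower (log2 fold change -0.42, SE 0.12, adjusted p = 0.0119), a call lost without TNRC6AB-/- replicate 3 (adjusted p = 0.088) or wild-type replicate 1 (adjusted p = 0.051). FKBP14, a prolyl isomerase of the endoplasmic reticulum, was lower (log2 fold change -0.45, SE 0.14, adjusted p = 0.0267), a call lost without any 1 of the 6 libraries (adjusted p from 0.056 to 0.084). The reference genes HPRT1 (log2 fold change -0.55, SE 0.14, adjusted p = 0.00588) and GAPDH (log2 fold change -0.81, SE 0.21, adjusted p = 0.00596) both fell.

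The protein synthesis machinery was lower. All 79 cytosolic ribosomal protein genes had a negative log2 fold change and 77 fell (97.5%), 76 of them outside the chromosome stretches, with a median of -0.75, where the median of all tested genes was 0.00. RPL8, a protein of the large subunit, fell from 1572, 1595 and 1236 to 729, 692 and 610.0 CPM (log2 fold change -1.12, SE 0.16, adjusted p = 1.52e-05). RPS2, of the small subunit, fell from 2117, 2139 and 1644 to 1026, 975 and 845 CPM (log2 fold change -1.05, SE 0.16, adjusted p = 4.07e-05). Ribosomal protein messages carry a common 5′ terminal tract through which mTOR controls their translation, and their genes have many processed pseudogenes, so reads of single members are uncertain. Ribosome biogenesis factors moved less, with 4 of 44 that rose and 8 that fell and a median of -0.14. FBL, the methyltransferase fibrillarin, fell from 270.0, 255 and 183 to 104, 101 and 86.8 CPM (log2 fold change -1.28, SE 0.15, adjusted p = 1.65e-06) and the nucleolar chaperone NPM1 fell too (log2 fold change -0.68, SE 0.15, adjusted p = 0.00262). MYC, which drives transcription of both groups of genes, fell from 270.4, 278 and 212 to 132, 129 and 113 CPM (log2 fold change -1.03, SE 0.22, adjusted p = 0.00154). Of its network of 12 tested genes 2 rose and 5 fell, among them MXI1, an antagonist of MYC (log2 fold change -1.03, SE 0.19, adjusted p = 0.000305).

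**Figure D3:**
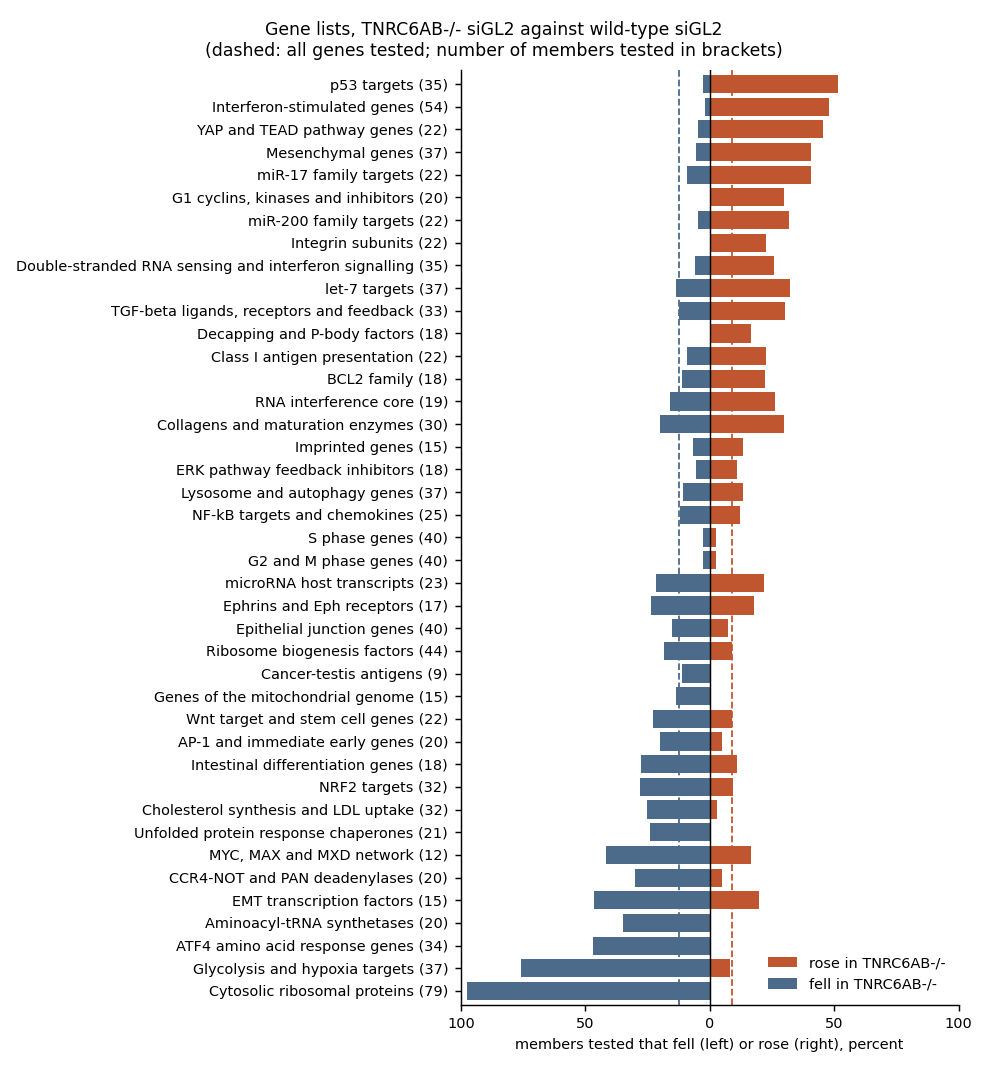
Share of the tested members of 41 gene lists that fell (left) or rose (right) in TNRC6AB-/- siGL2 against wild-type siGL2, in percent, with the number tested in brackets and the shares over all tested genes, 12.5% and 9.17%, as dashed lines. Lists are ordered by the difference of the shares, from p53 targets (51.4% rose) to cytosolic ribosomal proteins (97.5% fell).

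Glycolysis and hypoxia genes fell together. Of 37 tested 28 fell (75.7%) and 3 rose, with a median of -0.97. Without transfection 7 fell and 4 rose (median -0.22), and with siTNRC6C 26 fell and 3 rose (median -1.02). By the interaction test against untransfected cells 4 had a lower genotype difference under siGL2 and 0 a higher one. PDK1, a pyruvate dehydrogenase kinase, fell from 51.6, 53.2 and 51.5 to 16.2, 15.2 and 17 CPM (log2 fold change -1.69, SE 0.23, adjusted p = 1.15e-05). PFKL, a phosphofructokinase, fell from 97.4, 101 and 79 to 48.7, 44.1 and 43.1 CPM (log2 fold change -1.03, SE 0.16, adjusted p = 6.20e-05). CA9, a carbonic anhydrase that marks hypoxia, had 171 reads in the wild-type libraries and none in TNRC6AB-/- libraries, which made it at least 59.6-fold lower (floor of 3 reads over the group). BNIP3, a mitophagy receptor, went from 92.5 ± 16.4 to 27.9 ± 3.38 CPM (log2 fold change -1.73, SE 0.39, adjusted p = 0.00211). SLC2A3 was among the members that rose. Seeding density, which differed between the lines, cannot be told apart from genotype in these values.

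Genes of amino acid supply were lower. Of 34 targets of ATF4, the transcription factor of the amino acid response, none rose and 16 fell (47.1%), with a median of -0.74. DDIT4 fell from 167, 160.4 and 146 to 23.7, 21.7 and 20.7 CPM (log2 fold change -2.84, SE 0.51, adjusted p = 0.000239). The glutamine transporter SLC38A2 fell from 1340.3, 1281 and 1217 to 798, 730.1 and 698 CPM (log2 fold change -0.79, SE 0.13, adjusted p = 0.000102) and the serine enzyme SHMT2 from 148 ± 19.6 to 87 ± 6.92 CPM (log2 fold change -0.77, SE 0.15, adjusted p = 0.000789). The count rests on all 6 libraries, since it was 9 without TNRC6AB-/- replicate 1, 8 without TNRC6AB-/- replicate 2, TNRC6AB-/- replicate 3, wild-type replicate 1 or wild-type replicate 2, and 5 without replicate 3 of both groups. Of 20 aminoacyl-tRNA synthetases none rose and 7 fell, or 6 outside the stretch that holds GARS (-1.75). EPRS, which charges glutamate and proline, fell from 367, 359 and 308 to 225, 207 and 182 CPM (log2 fold change -0.75, SE 0.13, adjusted p = 0.000141). Unfolded protein response chaperones (5 of 21 fell, none rose) and NRF2 targets (9 of 32 fell, 3 rose) leaned the same way, with PDIA6 (-0.64, adjusted p = 0.00042) and NQO1 (-0.76, adjusted p = 3.99e-05) among those that fell.

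Counts for lipid synthesis and the lysosome depended on the fit. Of 32 genes of cholesterol synthesis and LDL uptake 1 rose and 8 fell, with a median of -0.40, and in the fit of the 6 compared libraries 2 rose and 20 fell. The desaturase SCD fell from 1904, 1841 and 1491 to 1049, 987 and 878 CPM (log2 fold change -0.85, SE 0.20, adjusted p = 0.00304), and MVD, of the mevalonate pathway, also fell (log2 fold change -0.81, SE 0.16, adjusted p = 0.000833). Of 37 lysosome and autophagy genes 5 rose and 4 fell, or 15 and 6 in the fit of the 6 compared libraries. Of the 15 genes of the mitochondrial genome 2 fell and none rose.

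Interferon-stimulated genes were higher. Of 54 tested 26 rose (48.1%) and 1 fell, 51 had a positive log2 fold change, and the median was 0.59. These genes are switched on by interferon or by sensors of double-stranded RNA and hold back viruses. IFIT2, which binds foreign RNA, rose from 3.11, 2.69 and 3.23 to 14.9, 15.5 and 14.5 CPM (log2 fold change 2.31, SE 0.28, adjusted p = 1.53e-06). PARP12 rose from 13.1, 13.9 and 13.2 to 40.6, 38.4 and 35.2 CPM (log2 fold change 1.5, SE 0.13, adjusted p = 1.01e-08) and PARP14, of the same family of ADP-ribosyltransferases, from 52, 48.8 and 46.9 to 106, 104 and 98.5 CPM (log2 fold change 1.06, SE 0.12, adjusted p = 7.49e-07). DTX3L, a ubiquitin ligase that pairs with PARP9, rose as well (log2 fold change 1.47, SE 0.20, adjusted p = 1.09e-05). Without replicate 3 of both groups 17 members rose, and leaving out 1 library left 20 to 24. In the fit of the 12 transfected libraries 40 rose.

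Of 35 sensing and signalling genes upstream of them 9 rose and 2 fell. DDX58, which encodes the RNA sensor RIG-I, rose from 16.9, 17.7 and 16.9 to 47.1, 45 and 45.7 CPM (log2 fold change 1.42, SE 0.19, adjusted p = 7.21e-06), and the endosomal receptor TLR3 rose too (log2 fold change 1.39, SE 0.25, adjusted p = 0.000296). Class I antigen presentation was mixed, with 5 of 22 genes that rose and 2 that fell and a median of 0.04. The peptidases ERAP1 (log2 fold change 1.02, SE 0.15, adjusted p = 2.29e-05) and ERAP2 (log2 fold change 1.35, SE 0.19, adjusted p = 1.09e-05), which trim peptides for class I molecules, rose, whereas HLA-E fell from 109, 106 and 89.5 to 61, 57.4 and 54 CPM (log2 fold change -0.82, SE 0.17, adjusted p = 0.000967). NF-kB targets and chemokines gave 3 of 25 that rose and 3 that fell.

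Targets of p53 were higher, in a line with wild-type p53. Of 35 tested 18 rose (51.4%) and 1 fell, with a median of 0.62. MDM2, the ubiquitin ligase that holds p53 down, rose from 355, 352 and 327 to 707, 679.7 and 629 CPM (log2 fold change 0.96, SE 0.10, adjusted p = 1.83e-07). CDKN1A, the cell cycle inhibitor p21 and also a miR-17 target, rose from 185, 183 and 159 to 505, 476 and 421 CPM (log2 fold change 1.41, SE 0.18, adjusted p = 4.41e-06). The kinase PLK2 rose from 144, 146 and 128 to 473, 437 and 402 CPM (log2 fold change 1.65, SE 0.13, adjusted p = 3.91e-09) and TP53INP1 from 64.2, 59.5 and 60.2 to 211, 196 and 180.0 CPM (log2 fold change 1.68, SE 0.13, adjusted p = 2.22e-09). Each of these was higher in every TNRC6AB-/- library than in any wild-type library.

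Genes of the G1 phase set the entry into the cell cycle, and those of S, G2 and M phase follow replication and mitosis. Of 20 G1 genes 6 rose and none fell, while of 40 S phase genes 1 rose and 1 fell and of 40 genes of G2 and M phase 1 rose (TPX2, 0.68) and 1 fell. In the fit of the 6 compared libraries, with its smaller spread, 9 S phase genes rose and 12 fell, and 21 genes of G2 and M phase rose and 3 fell. CDC25A, the phosphatase that opens S phase, rose (log2 fold change 1.02, SE 0.21, adjusted p = 0.00105). In the BCL2 family, which sets the threshold of apoptosis, 4 of 18 rose and 2 fell. The rises included the death effector BAK1 (log2 fold change 0.74, SE 0.17, adjusted p = 0.00282) and the BH3-only proteins PMAIP1 (log2 fold change 0.79, SE 0.17, adjusted p = 0.00151) and BCL2L11 (log2 fold change 0.92, SE 0.11, adjusted p = 2.00e-06).

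The target lists used belong to the let-7, miR-17 and miR-200 families, and the sequences below show the seeds that those targets are known to pair with. The seed (bases 2 to 8, in capitals) is shared within the miR-17 family and between miR-200b and miR-200c, while miR-141 of the same cluster as miR-200c differs in it. The mature sequences are those of RefSeq (GRCh38.p14):
hsa-let-7a-5p: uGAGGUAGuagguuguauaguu
hsa-miR-17-5p: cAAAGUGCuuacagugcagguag
hsa-miR-20a-5p: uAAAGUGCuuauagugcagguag
hsa-miR-200b-3p: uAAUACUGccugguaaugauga
hsa-miR-200c-3p: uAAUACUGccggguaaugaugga
hsa-miR-141-3p: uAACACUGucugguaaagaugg

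Of 37 targets of let-7 tested 12 rose (32.4%) and 5 fell, with a median of 0.20, or 11 and 4 outside the chromosome stretches. CDK6, a G1 kinase, rose from 257, 254 and 225 to 1268, 1231 and 1098 CPM (log2 fold change 2.29, SE 0.14, adjusted p = 5.44e-11). Its partner CCND1, cyclin D1, rose from 506, 507 and 390.1 to 2198, 2060.4 and 1830.0 CPM (log2 fold change 2.12, SE 0.17, adjusted p = 4.20e-09). HMGA2, a chromatin protein with many let-7 sites, rose from 317, 319 and 317 to 684, 682 and 622 CPM (log2 fold change 1.06, SE 0.086, adjusted p = 5.36e-09). All of these were higher in every TNRC6AB-/- library. NR6A1, a nuclear receptor of early development that lies in the chromosome 9 stretch, rose from 18.4, 17.8 and 18.7 to 57.5, 55.1 and 52.1 CPM (log2 fold change 1.59, SE 0.13, adjusted p = 4.20e-09). Against these, IGF2BP3, an oncofetal RNA-binding protein that lies in the chromosome 7 stretch, fell from 294, 296 and 277 to 96.8, 95.1 and 92.6 CPM (log2 fold change -1.61, SE 0.15, adjusted p = 2.89e-08), and MYC, a let-7 target too, fell as given above.

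Of 22 targets of the miR-17 family 9 rose (40.9%) and 2 fell, with a median of 0.24. BCL2L11, which encodes BIM, rose from 30.2, 30.1 and 25.8 to 57.1, 54.4 and 51.1 CPM, and SMAD7, an inhibitor of TGF-beta signalling, from 3.96, 2.95 and 3.60 to 13.5, 11.7 and 10.6 CPM (log2 fold change 1.77, SE 0.22, adjusted p = 3.00e-06). ZNFX1, an RNA helicase, rose as well (log2 fold change 0.74, SE 0.12, adjusted p = 0.000108). Of 22 targets of the miR-200 family 7 rose (31.8%) and 1 fell, with a median of 0.19. ZEB1, the repressor of epithelial genes that miR-200 is best known to hold down, rose from 15.6, 15.2 and 13.7 to 26.6, 25.5 and 23.8 CPM (log2 fold change 0.77, SE 0.14, adjusted p = 0.000344). FN1, fibronectin, rose from 28.9, 27.6 and 23.2 to 63.5, 57.5 and 53.7 CPM (log2 fold change 1.13, SE 0.15, adjusted p = 5.94e-06) and RND3, a small GTPase, from 19.4, 17.4 and 13.2 to 43.4, 43.9 and 37.4 CPM (log2 fold change 1.32, SE 0.20, adjusted p = 2.76e-05). SH3PXD2A, an adaptor of invadopodia, was the member that fell (log2 fold change -0.70, SE 0.11, adjusted p = 4.56e-05). MicroRNAs themselves were not measured. Of 23 transcripts that host microRNAs 5 rose and 5 fell. MIR17HG, host of the miR-17 cluster, fell from 8.58, 8.81 and 10.0 to 5.93, 5.17 and 5.56 CPM (log2 fold change -0.72, SE 0.15, adjusted p = 0.0013), while MIR34AHG, host of the p53-responsive miR-34a, rose (log2 fold change 0.93, SE 0.19, adjusted p = 0.00077), as did CTDSPL, a phosphatase gene that hosts miR-26a-1 (log2 fold change 1.35, SE 0.13, adjusted p = 5.57e-08).

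Mesenchymal genes were higher. Of 37 tested 15 rose (40.5%) and 2 fell, with a median of 0.42. VIM, the intermediate filament of mesenchymal cells, rose from 13.4, 12.5 and 10.1 to 43.4, 42 and 38.3 CPM (log2 fold change 1.78, SE 0.17, adjusted p = 8.34e-08). THBS1, a matrix glycoprotein that activates TGF-beta, rose from 14.8, 15.4 and 12.2 to 86.4, 83.1 and 73.9 CPM (log2 fold change 2.52, SE 0.27, adjusted p = 3.26e-07). CTGF, a matricellular target of YAP, rose from 4.04, 4.04 and 3.71 to 25.7, 25.7 and 22.3 CPM (log2 fold change 2.64, SE 0.31, adjusted p = 1.53e-06). TGFBI, a matrix protein induced by TGF-beta, had 11 reads in the wild-type and 423 in the TNRC6AB-/- libraries (36.7-fold higher, counting interval 20.3 to 74.2). The inhibitor of metalloproteinases TIMP3 went the other way, with 608 reads in wild type and 13 in TNRC6AB-/- libraries (48.9-fold lower, 28.4 to 92.5), as did CD44, a hyaluronan receptor (log2 fold change -0.86, SE 0.15, adjusted p = 0.000143). The summed fibroblast and muscle markers moved the same way as this list (45.8 to 52.3 against 24.4 to 33.8 CPM, with LUM at 0), and their part in its counts was not tested.

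Of 30 collagens and collagen enzymes 9 rose and 6 fell. The fibrillar collagen COL3A1, also counted among the fibroblast markers above, rose from 0.275, 0.365 and 0.368 to 7.05, 6.49 and 6.60 CPM (log2 fold change 4.31, SE 0.41, adjusted p = 5.00e-08), and COL12A1 from 165, 163 and 156 to 341, 332 and 318 CPM (log2 fold change 1.03, SE 0.15, adjusted p = 2.83e-05). The transmembrane collagen COL13A1 rose too (log2 fold change 1.39, SE 0.23, adjusted p = 0.000104). Of 22 integrin subunits 5 rose, 4 of them outside the stretches, and none fell, with ITGB5 (log2 fold change 1.14, SE 0.16, adjusted p = 1.51e-05) and ITGB8 (log2 fold change 1.48, SE 0.21, adjusted p = 1.48e-05) at the lowest adjusted p. Of 22 genes of the YAP and TEAD pathway 10 rose (45.5%) and 1 fell. Beside ANKRD1 and CTGF these included regulators that hold YAP back. AMOTL2 rose from 36.9, 37.6 and 30.5 to 106, 103 and 91.7 CPM (log2 fold change 1.52, SE 0.17, adjusted p = 5.96e-07). LATS2 (log2 fold change 0.97, SE 0.10, adjusted p = 1.33e-07) and NF2 (log2 fold change 0.91, SE 0.11, adjusted p = 3.20e-06) rose too. Of 33 genes of TGF-beta ligands, receptors and feedback 10 rose and 4 fell. Besides TGFB2 and SMAD7, LTBP2, named for the family of latent TGF-beta binding proteins, rose (log2 fold change 0.84, SE 0.15, adjusted p = 0.000315). ID2, a target of bone morphogenetic proteins, fell from 117, 114 and 97 to 30.3, 28.1 and 24.6 CPM (log2 fold change -1.98, SE 0.29, adjusted p = 2.10e-05). BMP2 had 68 reads in wild type and none in TNRC6AB-/- libraries, at least 23.7-fold lower.

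Of 15 transcription factors of the epithelial to mesenchymal transition, which include epithelial and mesenchymal ones, 3 rose and 7 fell. ELF3, of the epithelial side, fell from 77.2, 82.3 and 70.1 to 16.6, 15.4 and 14.6 CPM (log2 fold change -2.30, SE 0.20, adjusted p = 1.17e-08), and KLF4 fell too (log2 fold change -1.03, SE 0.24, adjusted p = 0.0032). Of 40 epithelial junction genes 3 rose (7.5%) and 6 fell (15%), near the shares over all tested genes (9.17% and 12.5%), and 6 and 12 in the fit of the 6 compared libraries. The summed epithelial markers, given above without TMM scaling, were higher in TNRC6AB-/- cells. In the scaled fit none of the 10 rose and 1 fell, with a median log2 fold change of -0.14. MAL2, of apical transport, fell from 130.4, 134 and 106 to 25.1, 20.7 and 20.3 CPM (log2 fold change -2.49, SE 0.45, adjusted p = 0.000284) and TJP3, of tight junctions, from 26.3, 28.9 and 25.9 to 13.3, 11.3 and 11.9 CPM (log2 fold change -1.15, SE 0.16, adjusted p = 9.73e-06). CDH1, E-cadherin, was at 67.4, 66.9 and 61.4 CPM in wild type and 39.5, 35.9 and 36.3 CPM in TNRC6AB-/- libraries, without overlap, but missed the threshold (log2 fold change -0.81, SE 0.32, adjusted p = 0.0793). It passed in the fit of the 6 compared libraries (log2 fold change -0.73, adjusted p = 1.5e-06). EPCAM (-0.19, adjusted p = 0.559) and KRT8 (0.13, adjusted p = 0.613) overlapped between the groups.

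Of 18 intestinal differentiation genes tested 2 rose and 5 fell. Besides ANXA10 and HNF4A the peptidase DPP4 fell from 13.2, 13.3 and 10.3 to 3.03, 3.43 and 3.14 CPM (log2 fold change -1.94, SE 0.22, adjusted p = 8.81e-07), while the adhesion molecule CEACAM1 rose from 1.43, 1.88 and 1.76 to 7.13, 6.61 and 6.51 CPM (log2 fold change 2.0, SE 0.18, adjusted p = 3.11e-08). Of 22 Wnt target and stem cell genes 2 rose and 5 fell, 4 of them outside the stretches. NKD2, an inhibitor of Wnt signalling that lies in the chromosome 5 stretch, fell from 7.92, 8.39 and 6.72 to 0.829, 0.820 and 0.807 CPM (log2 fold change -3.22, SE 0.22, adjusted p = 3.75e-10), and PROM1, the stem cell marker CD133, from 26.3, 26.4 and 22.9 to 6.06, 5.94 and 5.83 CPM (log2 fold change -2.08, SE 0.27, adjusted p = 5.49e-06). Of 20 immediate early genes 1 rose and 4 fell, led by JUNB (log2 fold change -1.33, SE 0.14, adjusted p = 3.05e-07). Of 18 feedback inhibitors of the ERK pathway 2 rose and 1 fell, the latter being PHLDA1, which went from 520.0, 507 and 449.6 to 135, 123 and 113 CPM (log2 fold change -1.99, SE 0.18, adjusted p = 2.64e-08). Ephrins and their receptors gave 3 of 17 that rose and 4 that fell. Of 15 imprinted genes 2 rose and 1 fell, and of 9 cancer-testis genes none rose and 1 fell.

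The same genotype difference can be set beside that in untransfected cells and in cells given siTNRC6C, with other libraries of the same lines. Of the 24153 tested genes 4521 changed without transfection (2480 higher, 2041 lower) and 6942 with siTNRC6C (3026 higher, 3916 lower). Shared calls therefore also depend on how many genes each comparison called. Of the 1301 genes higher under siGL2, 780 (60.0%) were also higher without transfection, which is 31.5% of the 2480 higher there, and 964 (74.1%) with siTNRC6C, which is 31.9% of 3026. Of the 1876 lower genes, 850 (45.3%, and 41.6% of 2041) were also lower without transfection and 1476 (78.7%, and 37.7% of 3916) with siTNRC6C. Opposite calls were few, at 11 of the higher and 41 of the lower genes without transfection and 6 and 4 with siTNRC6C. Over 11658 genes the log2 fold changes under siGL2 correlated with those without transfection at 0.66 and with those under siTNRC6C at 0.84, as a description across genes that share the line and their base composition. The untransfected libraries spread more, with a biological coefficient of variation of 0.209 against 0.0857 in the siGL2 libraries.

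The difference between the effects was tested as an interaction. The methods give the higher seeding number of TNRC6AB-/- cells for transfections and give none for untransfected cells. Estimated fragment length was 182 to 192 bases in the untransfected wild-type and TNRC6AB-/- libraries and 197 to 213 in the siGL2 libraries. Seeding and these library sets cannot be told apart from the effect of siGL2 in the interaction with untransfected cells. Higher or lower under siGL2 refers from here on to the genotype difference, not to the level of a gene. Over all genes of at least 5 CPM that difference had a median of -0.05 under siGL2, 0.08 without transfection and -0.21 with siTNRC6C. List medians and counts of higher and lower genes are not corrected for this offset between settings. Against untransfected cells 2105 genes (8.72%) had a genotype difference that differed at an adjusted p below 0.05, and 461 were higher and 1314 lower under siGL2 by more than 0.6. The total of 1775 was 1155 without TNRC6AB-/- siGL2 replicate 3, 1167 without wild-type siGL2 replicate 2 and 966 without untransfected TNRC6AB-/- replicate 2. Of 54 interferon-stimulated genes 22 were lower under siGL2 by this test and none higher, and the list median was 0.59 under siGL2 and 1.65 without transfection. IFI6, a mitochondrial interferon-induced protein, rose by 1.43 under siGL2 and by 4.67 without transfection (difference -3.24, SE 0.53, adjusted p = 0.000556), the former call being lost without replicate 3 of both siGL2 groups (adjusted p = 0.061). Of 22 class I genes 13 were lower under siGL2, with medians of 0.04 and 1.08, and HLA-E had opposite signs (-0.82 and 0.57, difference -1.40, SE 0.24, adjusted p = 0.000761).

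Other lists that differed from untransfected cells were the lysosomal genes (11 of 37 lower under siGL2, medians 0.03 and 0.53), Wnt target and stem cell genes (8 of 22 lower and 1 higher, medians -0.04 and 0.41), cholesterol synthesis (9 of 32 lower, medians -0.40 and 0.35) and mesenchymal genes (10 of 37 lower and 2 higher, medians 0.42 and 0.71). VIM rose by 1.78 under siGL2 and by 3.23 without transfection (difference -1.44, SE 0.25, adjusted p = 0.000863), and ZEB1 by 0.77 and 2.20 (difference -1.44, SE 0.20, adjusted p = 0.000148). For COL3A1 the fold changes were 4.31 and 9.54 (difference -5.23, SE 0.86, adjusted p = 0.000543), the latter against untransfected wild-type libraries in which it was near 0. In the other direction 15 of 44 ribosome biogenesis factors were higher under siGL2 and none lower, with medians of -0.14 and -0.68. MYC fell by 1.03 under siGL2 and by 2.33 without transfection (difference 1.30, SE 0.31, adjusted p = 0.011). The median of let-7 targets was 0.20 under siGL2, 0.19 without transfection and 0.20 with siTNRC6C, but 6 members were higher and 3 lower under siGL2 than without transfection, HMGA2 among the former (1.06 and 0.11, difference 0.95, SE 0.12, adjusted p = 4.77e-05).

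**Figure D4:**
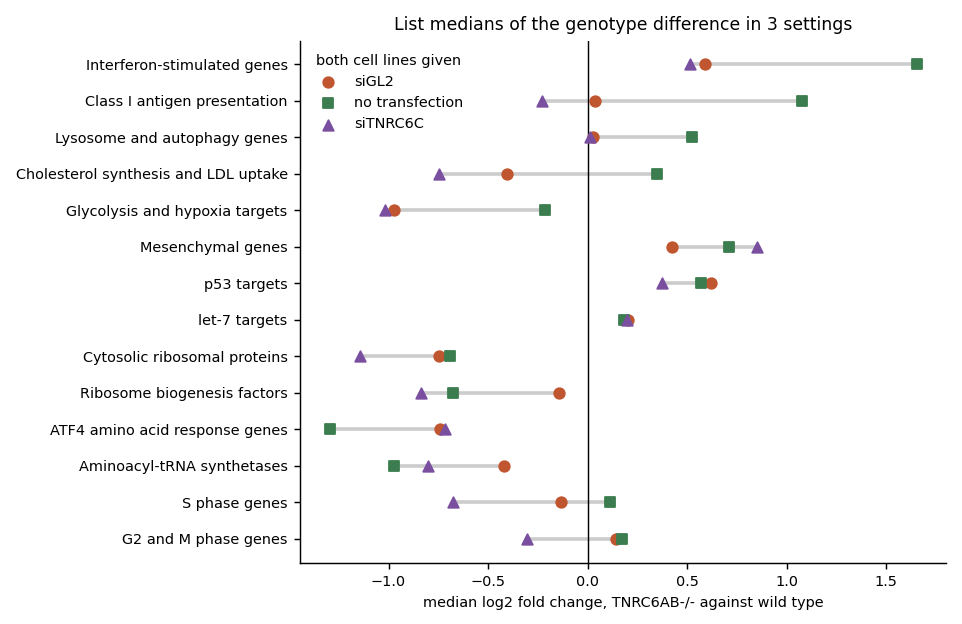
Median log2 fold change of TNRC6AB-/- against wild type (x axis) over the members of 14 gene lists under siGL2 (circles), without transfection (squares) and with siTNRC6C (triangles). Interferon-stimulated and class I genes are highest without transfection (1.65 and 1.08), glycolysis genes are near -1 in both transfected settings, and ribosome biogenesis factors are closest to 0 under siGL2.

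Among genes with a mean of at least 5 CPM over the siGL2 libraries, those with the largest positive difference from untransfected cells were DCLK1 (4.06 under siGL2, 0.39 without transfection), the monoglyceride lipase MGLL (2.16 and -1.28), the uridine phosphorylase UPP1 (0.36 and -2.33), the galactosyltransferase B3GALT5 (0.76 and -1.85) and the calcium pump ATP2C2 (-0.40 and -2.97). MGLL, which releases fatty acids from monoglycerides, stood at 5.86, 6.09 and 4.59 CPM in wild-type and 27.1, 24 and 22.8 CPM in TNRC6AB-/- siGL2 libraries. The largest negative differences at this limit were those of DDIT4L (-0.85 and 2.77), an inhibitor of mTORC1 related to DDIT4, IFI6, the glutamate receptor GRIK2 (2.46 and 5.66), ANXA10 (-9.32 and -6.13) and ANGPTL4 (-2.42 and 0.41), a secreted inhibitor of lipoprotein lipase. DDIT4L and ANGPTL4 fell under siGL2 but had a positive fold change in untransfected cells, and the difference passed the test for both (difference -3.63, SE 0.31, adjusted p = 1.98e-07, and difference -2.82, SE 0.53, adjusted p = 0.00191).

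Against siTNRC6C the differences were fewer at this spread. The interaction passed for 733 genes (3.03%), with 423 higher and 195 lower under siGL2 by more than 0.6. The 618 that passed both limits depended on the fit, at 2023 in the fit of the 12 transfected libraries, 973 by DESeq2 and 339 with reads rebuilt from TPM, and it was 196 to 308 with any 1 left out of TNRC6AB-/- siGL2 replicates 1 and 2, wild-type siGL2 replicate 3 and the 6 libraries given siTNRC6C. TNRC6C itself differed (1.16 under siGL2, -0.09 under siTNRC6C, difference 1.25, SE 0.12, adjusted p = 1.10e-05). Ribosome biogenesis factors had the largest share of members that differed, with 27 of 44 higher under siGL2 and none lower (medians -0.14 and -0.84). Of 79 ribosomal proteins none passed, at medians of -0.75 and -1.14.

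Among genes above the same limit SLC1A3, a glutamate transporter, rose by 1.68 under siGL2 and was at -1.92 under siTNRC6C (difference 3.60, SE 0.59, adjusted p = 0.00238). TNFSF18, a ligand of the tumour necrosis factor family, had opposite signs as well (1.53 and -1.52, difference 3.05, SE 0.41, adjusted p = 0.000292). TGFB2 (3.35 and 1.06), SUSD2 (-0.76 and -2.78) and the endocytic adaptor EPN3 (0.29 and -1.34) were the next. In the other direction were SLC2A3 (2.87 and 5.19), the let-7 target NR6A1 (1.59 and 3.76), LTBP2 (0.84 and 2.65) and the guanine exchange factor DOCK4 (0.89 and 2.49). HMGA2 also had a larger genotype difference under siTNRC6C (1.06 and 2.03, difference -0.97, SE 0.12, adjusted p = 0.00012), and so had VIM (1.78 and 2.90, difference -1.12, SE 0.24, adjusted p = 0.0151). For these genes the difference from wild type was larger where TNRC6C was targeted too.

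**Figure D5:**
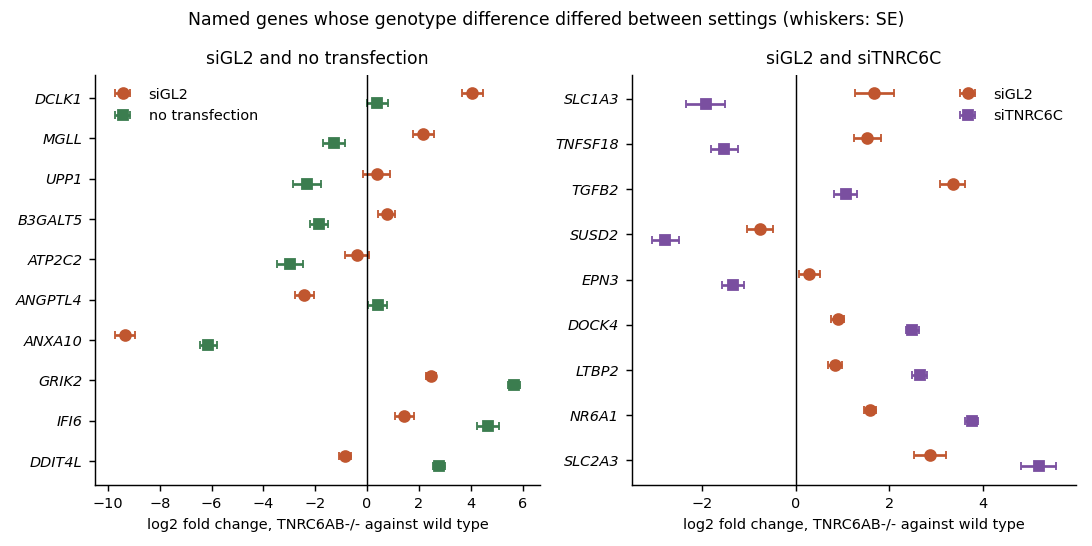
Log2 fold change of TNRC6AB-/- against wild type (x axis) with its SE (whiskers) for the named genes whose genotype difference under siGL2 was among those that differed most, at a mean of at least 5 CPM, from that without transfection (left) and from that with siTNRC6C (right). DCLK1 is at 4.06 under siGL2 and 0.39 without transfection, and SLC2A3 at 2.87 under siGL2 and 5.19 with siTNRC6C.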

How the data were processed

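The authors sequenced RNA of HCT116 cells (strand-specific kit per the labels) and ran Salmon 0.11.0. The deposited tables give, for 199612 transcripts, estimated counts of reads and TPM. STAR 2.5.3a, DESeq2 and hg38 are also named in the submitters' processing notes. RNA extraction is given as Trizol in the labels and as columns in the methods.

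Estimated counts were summed to 57721 genes of GENCODE 29 (199368 transcripts matched), rounded and fitted in edgeR 4.0.16 (R 4.3.3) by the quasi-likelihood test with TMM factors, filterByExpr and a mean for each of 8 groups over 24 libraries (24153 genes, 16 residual degrees of freedom). The Benjamini-Hochberg adjustment took in all tested genes. A changed gene has an adjusted p below 0.05 and differs by over 0.6 on the log2 scale. In lists and for single genes rose and fell use the adjusted p alone. SE is the fold change divided by the root of F. Intervals of read ratios cover counting error only. Named were the genes in the study's text, the 12 largest rises and falls of at least 5 CPM, 4 non-coding genes, up to 5 members per list and 5 genes per direction of each interaction, except where a gene is not reported here. The script was tested on simulated data. The comparison, lists and genes were chosen with earlier results of these data known. Alternatives used limma 3.58.1 and DESeq2 1.42.0.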

Additional observations from a re-analysis of the deposited data

Results flagged for a closer look

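Genes named above whose genotype difference (TNRC6AB-/- against wild type) differed between siGL2 and another setting by the interaction test, at an adjusted p below 0.05 over all tested genes, are listed with the log2 difference, siGL2 minus the other setting. Groups of 3 libraries were too small to be screened for single libraries that stand apart. The genotype difference was higher under siGL2 than without transfection for DCLK1 3.67, MGLL 3.44, UPP1 2.69, B3GALT5 2.61, ATP2C2 2.56, TGFBI 2.33, MAL2 2.25 and MGAT4C 2.10. Smaller positive differences from untransfected cells were those of KRTAP2-3 1.68, MYC 1.30, THBS1 1.30, RND3 1.28, PROM1 1.26, EPCAM 1.19, HMGA2 0.95 and PPIP5K2 0.42. It was lower under siGL2 than without transfection for COL3A1 -5.23, DDIT4L -3.63, TIMP3 -3.28, IFI6 -3.24, GRIK2 -3.21, ANXA10 -3.20, ANGPTL4 -2.82, SUSD2 -2.42, ISPD -2.17, TNFSF18 -2.03, NRIP1 -1.54, VIM -1.44, ZEB1 -1.44, AC025419.1 -1.41, HLA-E -1.40, JUNB -1.27 and TJP3 -1.23. Smaller negative differences from untransfected cells were those of HAS3 -1.23, SCD -1.17, NQO1 -1.06, COL13A1 -1.05, FN1 -1.01, MAMDC2 -0.93, PHLDA1 -0.92, ELF3 -0.89, COL12A1 -0.89, MVD -0.88, CD44 -0.78, CNOT6L -0.77, ERAP1 -0.74, ITGB5 -0.72, PLK2 -0.71 and MIR100HG -0.70. Compared with siTNRC6C the genotype difference was higher under siGL2 for SLC1A3 3.60, TNFSF18 3.05, TGFB2 2.29, SUSD2 2.02, EPN3 1.63, PROM1 1.43 and TNRC6C 1.25. Smaller positive differences from siTNRC6C were those of CEACAM1 1.17, MKX 1.16, COL12A1 1.09, RND3 1.02, NQO1 0.84 and HPRT1 0.80. It was lower under siGL2 than under siTNRC6C for SLC2A3 -2.33, NR6A1 -2.18, LTBP2 -1.81, DOCK4 -1.60, KRTAP2-3 -1.28 and VIM -1.12. Smaller negative differences from siTNRC6C were those of ZEB1 -0.98, HMGA2 -0.97, GRIK2 -0.97, TP53INP1 -0.85 and LATS2 -0.61. KRTAP2-3 has near-identical copies, and COL3A1, TIMP3 and ANXA10 are near 0 in at least 1 of the groups behind their differences. What sets these differences was not tested.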

How the results depend on the processing

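Of the 154 genes named, 133 passed the test in the report, and 7 of these missed the threshold under some alternative without a change of direction: TNRC6A, SND1, APIP, FKBP14, IFI6, SUSD2 and COL1A1. No direction reversed under any alternative run. Of 90 counts of list members that rose or fell 72 moved by over 1.5 times under at least 1 alternative, small counts included. TNRC6A was at -0.44 with reads rebuilt from TPM. SUSD2 was the least stable, with adjusted p from 0.053 to 0.128 in the fits with 1 library fewer, without replicate 3 of both siGL2 groups, with RLE factors and with reads rebuilt from TPM. The 3177 changed genes (1301 higher) became 5240 by adjusted p alone (2215 higher, 3025 lower), and the higher genes became 1996 in the fit of the 12 transfected libraries. The other settings (fit of 6, RLE, DESeq2, limma voom, reads rebuilt from TPM, no filter, a mean of at least 1 CPM) stayed within 1.5 times. Leaving out 1 library gave 2633 to 3366 changed genes (1124 to 1280 higher, 1493 to 2086 lower). It left TNRC6A at -1.0 to -0.90, TNRC6B at -1.45 to -1.36 and TNRC6C at 1.10 to 1.21.

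Library numbers matched the samples only in part. Over 11658 genes the deviations of same-numbered libraries correlated at 0.58, 0.06 and 0.70. TNRC6AB-/- replicates 1 and 3 correlated best with the wild-type library of their own number, and TNRC6AB-/- replicate 2 with wild-type replicate 1 (0.27). The labels do not say what same-numbered libraries share. With a replicate block the fit of 24 called 1288 higher and 1858 lower. The fit of 6 with a replicate block, added after seeing the data, called 1998 and 1789 (1700 and 1639 without the block), with 41 interferon-stimulated genes that rose and 25 ATF4 targets that fell.

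Interferon-stimulated genes that rose numbered 40 in the fit of the 12 transfected libraries, 17 without replicate 3 of both groups (added after seeing the data, as it is the shallower library of each) and 20 to 24 with 1 library fewer. ATF4 targets that fell numbered 5 and 8 to 11 in these last settings. The medians of the chromosome stretches moved to -0.90 (chromosome 5, fit of 6) and to -0.98 (chromosome 7, fit of 6) or -0.99 (chromosome 7, genes of at least 1 CPM), by more than the SD between libraries.

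The interaction with untransfected cells gave 1775 genes (461 higher, 1314 lower), and 966 to 2638 (296 to 732 higher, 586 to 1923 lower) with 1 library fewer. Higher genes were 752 with no filter, 708 at a mean of at least 1 CPM and 262 without replicate 3 of both siGL2 groups. The interaction with siTNRC6C gave 618 (423 higher, 195 lower), and 196 to 606 (99 to 439 higher, 88 to 181 lower) with 1 library fewer. It gave 2023 (1179 and 844) in the fit of the 12 transfected libraries, 2098 (1223 and 875) by limma voom, 973 (715 higher) by DESeq2, 339 (205 higher) with reads rebuilt from TPM and 156 (91 and 65) without replicate 3 of both siGL2 groups, and 405 lower genes at a mean of at least 1 CPM. A fit of 24 libraries assumes 1 spread for all, while the untransfected libraries spread more, and fits of fewer libraries test fewer genes. Genes at a few reads, such as CA9 and BMP2, have fold changes limited by depth.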
